A study of Homo sapiens with 9 samples.

Results

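Metallothionein transcripts were examined by RNA-seq in HCT116, a widely used human cell line from a colorectal carcinoma. The members were the 6 protein-coding metallothionein genes MT2A, MT1E, MT1X, MT1F, MT1G and MT1M of chromosome 16, found by gene symbol, chromosome and biotype among 58735 genes of the table. The table held 21 metallothionein rows in all, and the 15 others were protein-coding relatives and pseudogenes. MT2A, MT1E, MT1X and MT1F had reads in every library, whereas MT1G and MT1M had none in any of the 9.

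There were 3 groups of 3 libraries. WT cells were the line without the knockout. A20-KO cells had the gene TNFAIP3, which encodes the ubiquitin-editing protein A20, targeted by CRISPR delivered with a lentivirus and selected with puromycin. A20-RE cells, which the sample titles call OE, were A20-KO cells given back A20 from an expression vector, and so carried both the knockout and the vector. All libraries shared the cell line, and no drug treatment or time course separated the groups. It was not stated which guide the sequenced cells carried, whether they were clones, whether WT cells had a control vector, or whether the 3 libraries of a group were separate cultures. The p-values therefore measure only the spread between these libraries.

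Metallothioneins are small, cysteine-rich proteins of the cytoplasm and nucleus that bind zinc and copper, sequester cadmium and other toxic metals, and scavenge oxidants. Their genes are switched on by the zinc-sensing transcription factor MTF1, which binds metal response elements (MREs) in their promoters, and several also respond to glucocorticoids and to oxidative stress. In the colon they are made by epithelial cells, and their levels are often lower in carcinoma than in normal mucosa.

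Reads recovered from the table came to between 23406222 and 24963691 per library. TNFAIP3 was at 0.869, 0.80 and 0.736 FPKM (read fragments per kilobase, scaled between libraries) in WT. It was at 1.93, 2.16 and 1.04 FPKM in the libraries labelled A20-KO, and at 58.7, 66.5 and 56.5 FPKM in A20-RE. No library labelled A20-KO thus had less TNFAIP3 mRNA than a WT library. A gene-level value does not show whether a transcript was edited. Of 8 colorectal epithelium genes, 5 in WT and 6 in A20-KO and A20-RE had a mean of at least 1 FPKM, and of 8 genes of other cell types only COL1A1, a collagen gene, did. Each of the 9 libraries was nearest to a library of its own group.

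The 6 genes lie together on the long arm of chromosome 16 (GRCh38). MT2A (ENSG00000125148) spans chr16:56608199-56609497, MT1E (ENSG00000169715) chr16:56625475-56627112, MT1M (ENSG00000205364) chr16:56632233-56633986, MT1F (ENSG00000198417) chr16:56657694-56660698, MT1G (ENSG00000125144) chr16:56666731-56668065 and MT1X (ENSG00000187193) chr16:56682424-56684196. MT1G is on the minus strand and the other members are on the plus strand. The principal transcript of each has 3 exons and encodes a protein of 61 codons in 183 bases.

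The coding sequences of the 4 expressed members, from the principal GENCODE 29 transcripts without the stop codon, show how alike the genes are that the reads had to tell apart. Capitals mark each base that differs from MT2A.
MT2A: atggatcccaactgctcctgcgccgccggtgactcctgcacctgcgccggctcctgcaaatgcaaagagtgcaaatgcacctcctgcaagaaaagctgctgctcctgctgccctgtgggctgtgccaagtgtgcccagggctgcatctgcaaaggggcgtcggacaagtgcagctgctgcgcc
MT1E: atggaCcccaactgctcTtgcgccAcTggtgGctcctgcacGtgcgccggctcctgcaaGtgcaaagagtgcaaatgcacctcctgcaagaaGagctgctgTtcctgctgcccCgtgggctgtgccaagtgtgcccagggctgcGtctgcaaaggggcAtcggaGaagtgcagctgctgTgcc
MT1X: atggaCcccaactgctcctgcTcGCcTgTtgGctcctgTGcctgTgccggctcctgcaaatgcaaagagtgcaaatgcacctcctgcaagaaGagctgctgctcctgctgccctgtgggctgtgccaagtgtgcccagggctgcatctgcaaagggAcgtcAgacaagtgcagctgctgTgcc
MT1F: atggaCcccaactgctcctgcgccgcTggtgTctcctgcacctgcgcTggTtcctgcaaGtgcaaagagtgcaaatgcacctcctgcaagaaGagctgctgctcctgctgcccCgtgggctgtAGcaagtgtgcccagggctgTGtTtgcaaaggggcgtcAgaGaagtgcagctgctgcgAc

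MT1E and MT1X each differed from MT2A at 14 of 183 bases and MT1F at 16, while the silent members MT1G and MT1M differed at 9 and 19. Identity over the 15 pairs of members ran from 88.5% to 95.1%. All 4 expressed members agreed at 154 of the 183 bases, and the longest stretch shared by all 6 members ran for 32 bases, from coding position 61 to 92. At a window of 100 bases, no stretch of the principal transcripts of MT2A, MT1E, MT1F, MT1G or MT1M occurred exactly in a transcript of another gene. For MT1X 19.1% of such windows did, all of them in AC026461.1, a non-coding transcript on the same strand that shares 321 exonic bases (18.1%) with MT1X and was listed at 0 in all 9 libraries. At 50 bases the share was 45.1% for MT1X, 20.2% for MT1G and between 3.59% and 7.05% for the other 4 genes. Counts of MT1X are therefore the least certain among the expressed members.

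MT2A, the main isoform of most human tissues, was the most abundant member in every library. Its level was 657, 332 and 393 FPKM in WT, 347, 393 and 484 FPKM in A20-KO, and 435, 389 and 617 FPKM in A20-RE. The 3 groups overlapped, and the highest library was a WT library. The mean was 461 ± 173 FPKM in WT, 408 ± 69.7 in A20-KO and 480 ± 121 in A20-RE (SD, n = 3). None of the comparisons passed the test, with log2 fold changes between -0.13 and 0.22 and adjusted p-values from limma between 0.66 and 0.84. The 95% interval for A20-KO against WT ran from -0.74 to 0.49 on the log2(FPKM + 0.1) scale, so changes of moderate size in either direction could not be told from none. In these bulk samples fewer cells that express a gene and less RNA per cell cannot be told apart.

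MT1E encodes an isoform of the MT1 group and was the only member called lower in any comparison. It was at 263, 156 and 160 FPKM in WT, at 80.8, 103 and 108 FPKM in A20-KO, and at 72.2, 62.8 and 91.8 FPKM in A20-RE. All WT libraries were above all libraries of the other groups, while A20-KO and A20-RE overlapped. Mean levels were 193 ± 60.5 FPKM in WT, 97.5 ± 14.6 in A20-KO and 75.6 ± 14.8 in A20-RE (SD, n = 3). Relative to WT, MT1E fell by 1.32 (SE 0.23) on the log2 scale in A20-RE, with an adjusted p-value of 0.0022 in limma, a difference larger than the spread between libraries. For the libraries labelled A20-KO, the log2 fold change from WT was -0.95 (SE 0.23, adjusted p = 0.017 in limma), past the p-value threshold but short of the fold change of 1 on the log2 scale that a call also required. The change between A20-KO and A20-RE was -0.37 (95% interval -0.88 to 0.14) and did not pass (adjusted p = 0.34 in limma).

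MT1X, an isoform gene that zinc and cadmium induce, showed another pattern. Its FPKM was 16.9, 9.03 and 9.14 in WT, 10.7, 6.58 and 13.7 in A20-KO, and 20.9, 19.4 and 26.7 in A20-RE. Every A20-RE library was above every other library, and WT and A20-KO overlapped. The means were 11.7 ± 4.54 FPKM in WT, 10.3 ± 3.58 in A20-KO and 22.3 ± 3.88 in A20-RE (SD, n = 3). Against A20-KO, MT1X rose in A20-RE by 1.15 on the log2 scale (SE 0.31), with an adjusted p-value of 0.0499 in limma, just inside the threshold. This call was lost on leaving out any library other than WT replicate 1, with log2 fold changes of 0.86 to 1.39 over the left-out fits. In A20-RE against WT the log2 fold change was 0.98 (SE 0.31, adjusted p = 0.039 in limma), just short of the fold threshold, and in A20-KO against WT it was -0.18 (adjusted p = 0.73).

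MT1F, a further MT1 isoform gene, was expressed at a low level. It stood at 3.86, 2.33 and 2.92 FPKM in WT, at 4.12, 4.29 and 6.61 in A20-KO, and at 5.71, 4.54 and 6.36 in A20-RE, from 110 to 291 reads per library. Both A20-KO and A20-RE lay above WT in every library and overlapped with each other. Group means were 3.04 ± 0.771, 5.004 ± 1.39 and 5.54 ± 0.919 FPKM (SD, n = 3). The log2 fold change was 0.70 (SE 0.23, adjusted p = 0.061 in limma) in A20-KO against WT and 0.86 (SE 0.23, adjusted p = 0.021) in A20-RE against WT, and neither was a call. Between A20-KO and A20-RE it was 0.16 (95% interval -0.36 to 0.69).

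MT1G and MT1M, genes for further MT1 isoforms, had 0 reads in all 9 libraries and entered no test. A floor of 3 reads corresponds to between 0.160 and 0.174 FPKM for MT1G and between 0.127 and 0.139 FPKM for MT1M, so a level under these values was not detectable at this depth. This limit covers counting error only, and a read that maps equally well to MT1G and another member could have been dropped. Of the 12 protein-coding metallothionein rows 7 were at 0 in every library, among them MT3 and MT4, the isoforms known from brain and from stratified epithelium.

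**Figure D1:**
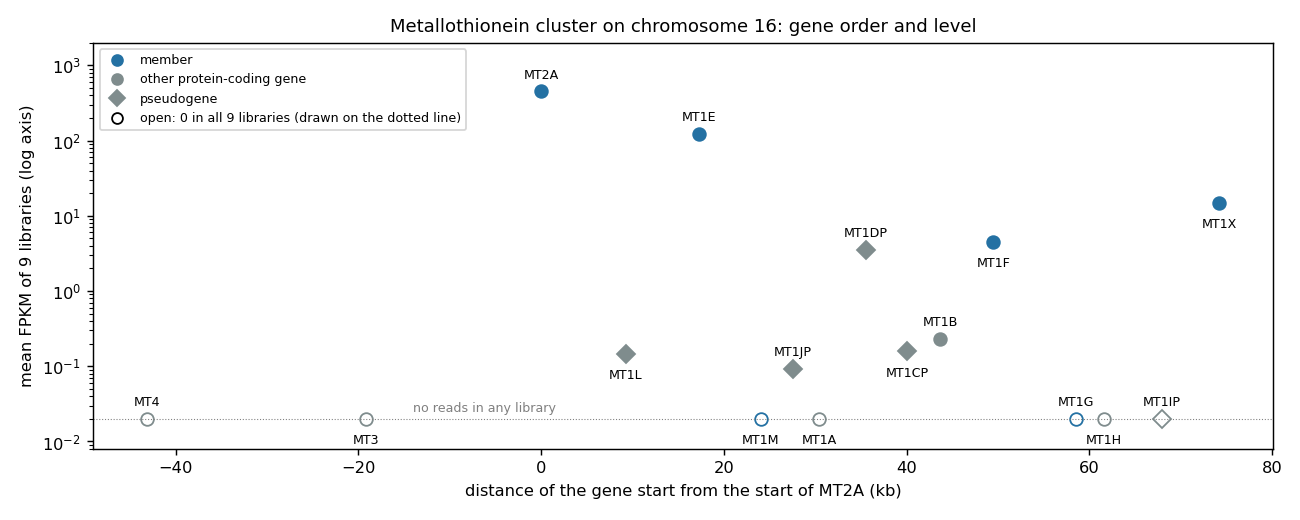
Mean FPKM over 9 libraries (log axis) of the metallothionein rows of chromosome 16 against the distance of the gene start from that of MT2A in kb, with blue points for members, grey points for other protein-coding genes, diamonds for pseudogenes and open symbols on the dotted line for rows at 0. Expressed members sit beside silent ones, with MT1G and MT1M at 0 between MT2A at 450 FPKM and MT1X at 14.8.

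Among the 15 other rows, 6 were at 0 throughout, 6 had under 10 reads in every library, and 3 reached 10 reads in a library. The pseudogene MT1DP, which lies between MT1M and MT1F, had 8, 8 and 8 reads in WT, 15, 18 and 15 in A20-KO and 25, 21 and 27 in A20-RE. The 3 groups did not overlap, and the order was WT, A20-KO, A20-RE. MT1DP rose by a log2 fold change of 1.00 (SE 0.14, adjusted p = 0.0015 in limma) in A20-KO against WT and of 1.61 (adjusted p = 6.2e-05) in A20-RE against WT. Between A20-KO and A20-RE the value was 0.61 (adjusted p = 0.031), under the fold threshold. These values rest on few reads. The equal WT counts gave an SD of 0.0067 FPKM, below the counting error of so few reads. The SE and adjusted p-values of MT1DP from limma therefore understate its error. The A20-KO call was lost with a pseudocount of 1 (0.74), with limma-voom (0.99) and without A20-KO replicate 2 (0.93). The pseudogenes MT2P1, with 1 to 16 reads, and MT1XP1, with 2 to 10 reads, were not called in any comparison.

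The order of the members by FPKM was MT2A, MT1E, MT1X and MT1F in each of the 9 libraries, and within a group neighbouring members did not overlap except in A20-KO, where MT1X at 6.585 FPKM in replicate 2 lay just below MT1F at 6.609 FPKM in replicate 3. These levels depend on the length assigned to each gene. The table used the summed exon length of all transcripts, which is 3.94 times the principal transcript for MT1X, 2.74 times for MT1F, 1.65 times for MT2A and 1.49 times for MT1E. With the principal transcript's length, the WT means became 762 FPKM for MT2A, 288 for MT1E, 46.1 for MT1X and 8.32 for MT1F, in the same order. Ratios of FPKM between groups are not touched by this choice, since the length is the same in each library.

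The shares of member FPKM held by MT2A and MT1E differed between the groups. MT2A made up 68.6% ± 1.84 of the summed FPKM of the members in WT, 78.3% ± 0.766 in A20-KO and 82.1% ± 0.898 in A20-RE (SD, n = 3). MT1E made up 29.2% ± 1.79, 18.8% ± 1.42 and 13.0% ± 0.595. The MT1X share was 1.61% to 1.81% in WT, 1.30% to 2.42% in A20-KO and 3.601% to 4.07% in A20-RE, so WT and A20-KO overlapped. That of MT1F was 0.410% to 0.516%, 0.845% to 1.08% and 0.857% to 1.07%, so A20-KO and A20-RE overlapped. The summed level itself was 668 ± 238 FPKM in WT, 521 ± 85.8 in A20-KO and 584 ± 140 in A20-RE, so the total differed between groups by less than the SD of the WT libraries. The MT2A share did not overlap between groups, at 66.5% to 69.9% in WT, 77.5% to 79.0% in A20-KO and 81.5% to 83.2% in A20-RE. The members took between 0.0582% and 0.121% of the reads of a library.

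Over the 4 members tested, limma made no call in A20-KO against WT, where 6.99% of 21636 genes were called, 4.91% higher and 2.08% lower. Here 2 members were under 0.05 before adjustment, the fit by limma-voom to reads recovered from FPKM called 0, and 1 member, MT1E, had an adjusted p-value under 0.05 at any fold beside 22.3% of all genes. In A20-RE against A20-KO 1 of 4 was called, MT1X, beside 2.39% of all genes (1.56% higher, 0.832% lower), and at any fold it was the only member under an adjusted p-value of 0.05 beside 8.97% of all genes. In A20-RE against WT 1 of 4 was called, MT1E, beside 11.9% of all genes (7.68% higher, 4.21% lower), and 3 of 4 had an adjusted p-value under 0.05 at any fold beside 31.1% of all genes. Groups did not overlap for 2 members in A20-KO against WT, for 1 in A20-RE against A20-KO and for 3 in A20-RE against WT, where 38.1%, 35.4% and 45.3% of all genes did not overlap either. The members' median log2 fold changes were -0.15, 0.19 and 0.48 in the 3 comparisons, beside -0.01, 0.01 and 0.03 over all genes tested. A20-RE against WT shares its libraries with the other 2 comparisons. An exact permutation test of 3 libraries against 3 cannot give a p-value under 0.1 and was therefore not informative for a single gene.

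**Figure D2:**
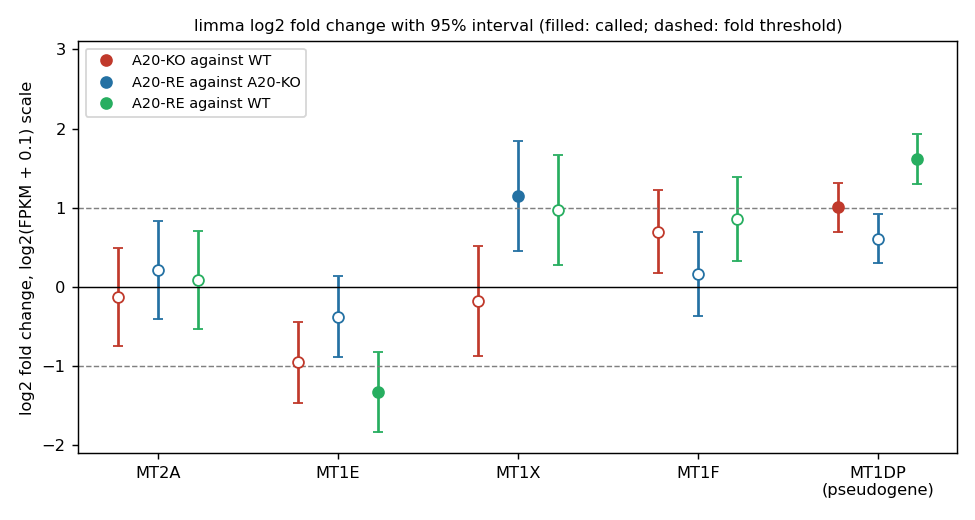
log2 fold change on the log2(FPKM + 0.1) scale with its 95% interval from limma, for the 4 expressed members and the pseudogene MT1DP in the 3 comparisons, with filled points for calls, open points for other values and dashed lines at the fold threshold. Among the members only MT1E in A20-RE against WT and MT1X in A20-RE against A20-KO are filled. The intervals of MT1DP understate the counting error of its few reads.

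WT replicate 1 stood apart from the other WT libraries, over all genes as well as in the members. A chi-square per gene of its recovered reads was 39.8 against WT replicate 2 and 71.3 against WT replicate 3, beside 14.5 between those 2. Its level was 1.81 times the mean of the other 2 WT libraries for MT2A, 1.66 times for MT1E, 1.87 times for MT1X and 1.47 times for MT1F, whereas the median of 12796 genes averaging 1 FPKM or more was 0.01 on the log2 scale, with a 5th to 95th percentile of -0.91 to 0.59. The value of MT1F lay inside that range and those of the other 3 members above it. A20-KO replicate 3 also stood apart, with a chi-square per gene of 27.4 against replicate 1 and 39.4 against replicate 2. Between those 2 it was 8.23, and in A20-RE the values were 7.62, 9.53 and 23.5. A20-KO replicate 3 was the highest of its group for each expressed member, and so was A20-RE replicate 3 in its own group. In each group the library with the highest mitochondrial share of reads was also the highest in MT2A. These were WT replicate 1 (10.1%), A20-KO replicate 3 (11.9%) and A20-RE replicate 3 (14.0%), and the part of this in the members' levels was not tested. By group, the mitochondrial share was 7.52% to 10.1% in WT, 9.18% to 11.9% in A20-KO and 11.97% to 14.0% in A20-RE. Without WT replicate 1, MT1E still fell in A20-RE against WT by 1.08 on the log2 scale (adjusted p = 0.0036 in limma), and MT1X (1.27, adjusted p = 0.012) and MT1F (1.04, adjusted p = 0.013) became calls there. Without it, the values in A20-KO against WT were 0.16 for MT2A, -0.71 for MT1E, 0.12 for MT1X and 0.88 for MT1F, so the sign turned for MT2A and MT1X.

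Since all 4 expressed members were high in WT replicate 1, each MT1 gene was also set against MT2A within its own library, a measure chosen after the values were seen and given without a test. MT1E reached 40.0%, 46.9% and 40.8% of the MT2A level in WT, 23.3%, 26.3% and 22.4% in A20-KO, and 16.6%, 16.2% and 14.9% in A20-RE. On this scale WT replicate 1 lay within 1 percentage point of WT replicate 3, and the 3 groups were separate. MT1X was at 2.58%, 2.72% and 2.32% of MT2A in WT, 3.08%, 1.68% and 2.83% in A20-KO, and 4.80%, 4.98% and 4.33% in A20-RE. A20-RE was again above all other libraries, with WT and A20-KO overlapping. For MT1F the ratio was 0.587%, 0.703% and 0.743% in WT, 1.19%, 1.09% and 1.37% in A20-KO, and 1.31%, 1.17% and 1.03% in A20-RE, both latter groups being above WT. Relative to MT2A, the log2 difference from WT to A20-KO was -0.83 for MT1E, -0.01 for MT1X and 0.84 for MT1F, and from A20-KO to A20-RE it was -0.59, 0.89 and -0.05. The ratio shows unequal change between members and does not show that MT2A stayed the same.

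Across the 9 libraries, Pearson's r between members was 0.64 for MT2A and MT1X, 0.63 for MT1X and MT1F, 0.52 for MT2A and MT1F, 0.35 for MT2A and MT1E, -0.29 for MT1E and MT1X and -0.53 for MT1E and MT1F. The 9 points share their libraries and their group means, so these values are a description. The genes most like the mean centred profile of the 4 members among 10970 genes compared were PLP2 (r = 0.95), OSTC (0.95), LIN7C (0.94), MRPS31 (0.93) and DPH5 (0.93), and 68 genes (0.620%) had an r above 0.8. PLP2, a membrane protein of the endoplasmic reticulum, was also highest among WT libraries in replicate 1, at 138 FPKM against 90.0 and 110, and was 146 FPKM in A20-RE replicate 3. PLP2 was picked for its likeness to a profile that was highest in these same libraries (0.50 and 0.44), so this match was built in.

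The RefSeq table held upstream sequence for 2 of the 6 members, MT2A and MT1X (GRCh38.p14). The MREs through which MTF1 acts share a core of 7 bases, searched here as TGCACNC or TGCGCNC on both strands in the 250 bases upstream of the RefSeq start. MT1X, the member called in A20-RE against A20-KO, held 4 cores, all within the stretch from -250 to -47 printed here, with the cores in capitals.
MT1X, chr16:56682220-56682423, plus strand: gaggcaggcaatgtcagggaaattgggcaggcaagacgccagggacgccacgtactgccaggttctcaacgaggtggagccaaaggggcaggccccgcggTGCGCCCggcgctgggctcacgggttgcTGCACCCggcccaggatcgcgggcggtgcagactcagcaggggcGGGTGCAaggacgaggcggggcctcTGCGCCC
MT2A, chr16:56608416-56608444, plus strand: GTGTGCAgagccgggTGCGCCCggcccag

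MT2A held 7 cores in its 250 bases, of which the stretch shown from -168 to -140 carries a pair. The whole of this window, the printed stretch included, lies in exon sequence that GENCODE annotates for the gene. At least 1 core was present in 24.8% of the 35116 promoters of the table, 4 or more in 0.370% (130 promoters) and 7 or more in 0.0313% (11 promoters). Both members had a TATAAA box, found in 10.7% of promoters, and an antioxidant response element core TGACNNNGC, found in 10.9%. The AP-1 site TGACTCA, found in 4.20% of promoters, occurred once in MT2A and not in MT1X. A match is a description of the letters and not a measured binding site.

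Genes that handle the same metals were compared from lists chosen for this purpose. Of 24 zinc transporter genes 20 were tested. In A20-RE against A20-KO only SLC30A1, the plasma membrane zinc exporter and a further MTF1 target, was called, from 5.53, 5.08 and 4.23 FPKM in A20-KO to 9.90, 11.5 and 9.28 in A20-RE. WT was at 5.27, 5.50 and 5.32 FPKM, so A20-RE stood above both other groups, as it did for MT1X. This was not particular to SLC30A1 among zinc transporters. A20-RE also stood above both groups for SLC39A10, SLC39A11, SLC30A4 and the barely expressed SLC39A2, and below both for SLC39A3. None of these was called, and the share of all genes above both groups was not counted. Over all genes, A20-RE did not overlap A20-KO for 35.4% and WT for 45.3%. MT2A, with 7 MRE cores, overlapped between groups, and a part of MTF1 in these values was not tested. The SLC30A1 change was 1.03 (SE 0.12, adjusted p = 0.0028 in limma), and against WT it was 0.91 (adjusted p = 0.00069), short of the fold threshold. With limma, 0 zinc transporters were called in A20-KO against WT, where 8 had an unadjusted p-value under 0.05 and limma-voom called 0. Likewise 0 were called in A20-RE against WT, where 12 had an unadjusted p-value under 0.05 and limma-voom called 2. The list's median log2 fold changes were -0.12, 0.00 and 0.09. In the same order of comparisons, limma gave 22.3%, 8.97% and 31.1% of all genes an adjusted p-value under 0.05. It called 6.99%, 2.39% and 11.9%, and limma-voom called 1771, 633 and 2933 of 21636 genes. The share of all genes at an unadjusted p-value under 0.05 was not counted. Such counts, here and in the lists below, are therefore a description.

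MTF1 itself was at 4.95, 5.05 and 5.05 FPKM in WT, 4.86, 5.24 and 3.73 in A20-KO and 4.64, 5.28 and 4.10 in A20-RE, overlapping between groups. Of 13 genes of metal and oxidant response, 3 rose and 3 fell between A20-KO and A20-RE. Against WT, 2 rose and 3 fell in A20-RE. HMOX1, which encodes the haem-degrading enzyme haem oxygenase, was at 7.82, 10.5 and 13.4 FPKM in WT, then 18.4, 18.6 and 22.8 in A20-KO, and finally 56.9, 52.0 and 58.9 in A20-RE. The log2 fold change of HMOX1 was 0.94 (adjusted p = 0.0063 in limma, no call) in A20-KO against WT and 1.49 (adjusted p = 0.0028) in A20-RE against A20-KO. GCLC, the catalytic subunit of the glutathione-synthesis enzyme, rose by 1.04 in A20-RE against A20-KO (adjusted p = 0.0019 in limma). Other genes of the list did not all go this way. From A20-KO to A20-RE the mean went from 7.12 to 6.80 FPKM for GCLM and from 140 to 112 for NQO1. SRXN1 overlapped, and TXNRD1 went from 54.6 to 91.6 FPKM, all without a call. The genes that fell in A20-RE were the heat-shock chaperones DNAJB1, by 1.24 on the log2 scale against A20-KO, and HSPA1A and HSPA1B, by 2.15 and 1.77, which are near-identical copies whose separate counts are uncertain. Within this list in A20-KO against WT limma called 0 genes, with 3 at an unadjusted p-value under 0.05 and 0 called by limma-voom. The list's median log2 fold changes were 0.01, -0.06 and -0.11.

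**Figure D3:**
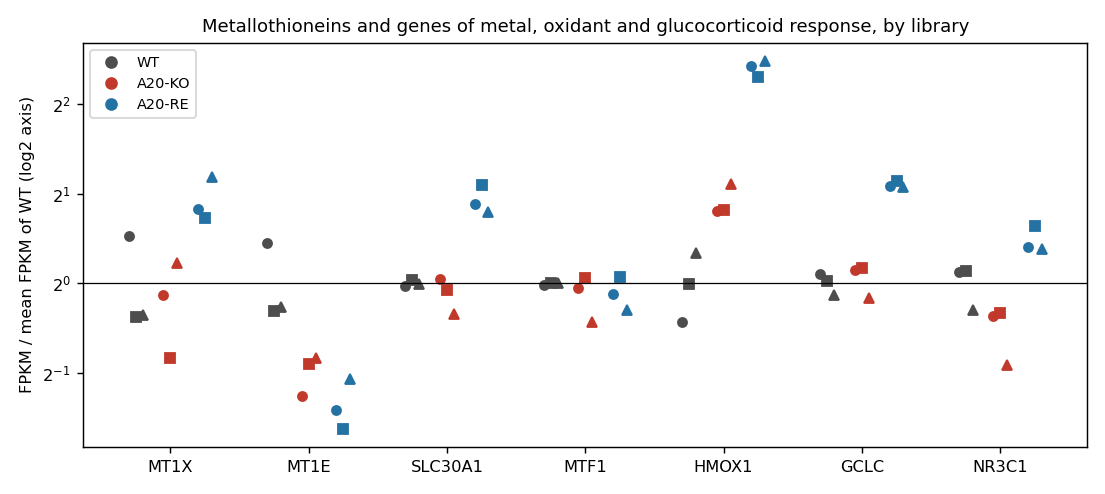
FPKM of each library divided by the mean FPKM of WT (log2 axis) for MT1X, MT1E, the zinc exporter SLC30A1, the metal-sensing factor MTF1, the oxidant-response genes HMOX1 and GCLC and the glucocorticoid receptor NR3C1, with markers for replicates 1, 2 and 3. A20-RE libraries are the highest for MT1X, SLC30A1, HMOX1, GCLC and NR3C1, lie below WT for MT1E, and overlap with the other groups for MTF1. The other genes of the metal and oxidant list, some of them lower in A20-RE, are not drawn.

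Copper handling genes gave 1 call among 13 rows tested, CCS, the copper chaperone of superoxide dismutase, which rose by 1.20 (SE 0.15, adjusted p = 0.00085 in limma) in A20-KO against WT, from a mean of 8.25 to 19.3 FPKM. In the other 2 comparisons limma called 0 of them, with 8 genes between A20-KO and A20-RE and 5 between WT and A20-RE at an unadjusted p-value under 0.05, and 0 by limma-voom in both. The copper importer SLC31A1 was at 13.6, 12.3 and 12.8 FPKM in WT and 10.6, 10.8 and 8.33 in A20-KO, a log2 fold change of -0.38 (adjusted p = 0.036 in limma) that was no call. The list's median log2 fold changes were 0.02, -0.17 and -0.15.

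Of 12 glucocorticoid response genes 11 were tested, and 2 rose in A20-KO and 3 in A20-RE relative to WT, while limma called 0 between A20-KO and A20-RE. ANGPTL4, a lipoprotein lipase inhibitor, rose by 1.76 in A20-KO and 2.60 in A20-RE against WT. ZFP36, which destabilizes AU-rich mRNAs, rose by 1.26 and 1.35, and the clock gene PER1 rose by 1.21 in A20-RE against WT. SGK1 of the same list went the other way and was not called. Its level was 1.28, 1.16 and 1.32 FPKM in WT and 0.745, 0.798 and 0.631 in A20-KO. In A20-RE the SGK1 level was 0.604, 0.657 and 0.684 FPKM. The receptor gene NR3C1 was at 2.09, 2.11 and 1.56 FPKM in WT, 1.49, 1.52 and 1.02 in A20-KO, and 2.54, 2.99 and 2.50 for the A20-RE libraries. Its change of 0.95 in A20-RE against A20-KO (adjusted p = 0.018 in limma) was no call. TSC22D3, a target that glucocorticoids induce strongly, ranged from 1.503 to 2.22 FPKM over the 9 libraries, overlapped between groups and was not called. Between A20-KO and A20-RE 3 genes of the list had an unadjusted p-value under 0.05 and limma-voom called 0. The list's median log2 fold changes were 0.24, 0.04 and 0.22.

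Protein-coding genes within 500 kb of the members on chromosome 16 were compared to see whether the region moved as a block. Of 12 such neighbours 9 were tested, and limma called 0 in each comparison, with 7, 5 and 5 at an unadjusted p-value under 0.05 and 0, 0 and 1 called by limma-voom. Their median log2 fold changes were 0.13, -0.29 and -0.25, and the lowest value was -0.98 for the nuclear pore gene NUP93 in A20-RE against WT. MT1E and MT1X, on either side of the silent MT1G, had values of opposite sign in A20-RE against WT (-1.32 and 0.98), of which the latter was no call.

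Among markers of other cell types, COL1A1 was called higher in A20-KO (13.3 FPKM) and A20-RE (11.7 FPKM) than in WT (5.32 FPKM), and the summed level of all 8 markers was 5.05 to 6.32 FPKM in WT, 12.9 to 15.6 in A20-KO and 11.2 to 12.6 in A20-RE. The 8 epithelium genes summed to 717 to 943 FPKM in WT, 942 to 1203 in A20-KO and 915 to 1198 in A20-RE, and KRT20, a keratin of differentiated colonocytes, was called higher in both groups than in WT. The summed other-cell markers were carried by COL1A1 alone, and each of the other 7, among them PTPRC, CD14 and VIM, was at or under 0.363 FPKM in every library. COL1A1 did not overlap between WT and the other groups, the epithelium sums overlapped narrowly, MT1E was lower there and MT1F higher, and the part of these markers in the members' values was not tested.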

How the data were processed

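The authors sequenced poly-A selected RNA as paired ends, aligned it with HISAT2 2.0.5 and counted it with featureCounts 1.5.0-p3 (versions from the submitters' notes); they tested counts with DESeq2, which was not run here. They deposited FPKM per gene. Strand setting and build are not given in the sources used here; coordinates matched GENCODE 29 on GRCh38 for 58724 of 58735 genes (99.98%). FPKM times gene length gave whole reads within 0.02. limma 3.58.1 (R 4.3.3) was fitted to log2(FPKM + 0.1) with a variance trend over 21636 genes averaging 0.1 FPKM or more, 9 libraries in 3 groups. A call required a Benjamini-Hochberg adjusted p-value under 0.05 over all genes together with a log2 fold change beyond 1 in size. The pseudocount understates changes of low genes. limma-voom on recovered reads, other pseudocounts, filters and fits, a replicate block and each library left out were alternatives. On simulated reads limma recovered 195 of 200 changed genes among 21670 (log2 change 2, 7 false calls), limma-voom 196 (2 false). The spread between simulated libraries was set below that of MT2A, MT1E and MT1X in WT (SD 37.6%, 31.4% and 38.8% of the mean). Changed genes averaged 1 FPKM or more, and their change was larger than any of the members. This recovery therefore does not give the power for the members. Named genes were the 6 members, family rows with 10 or more reads in a library, MTF1, SLC30A1, HMOX1, NR3C1, TSC22D3 and SLC31A1, up to 3 largest rises and falls among calls of each list, and the 5 genes most alike in pattern. NUP93, SGK1, GCLM, NQO1, SRXN1, TXNRD1 and the zinc transporters other than SLC30A1 were named after their values were seen. Members and lists were chosen with earlier results of these data known.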

Additional observations from a re-analysis of the deposited data

How the results depend on the processing

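MT1E in A20-RE against WT was called under all 18 alternatives (log2 fold change -1.47 to -1.08, adjusted p 0.0012 to 0.014 in limma and 8.9e-05 in limma-voom), and MT1X in A20-RE against A20-KO under 6 of 18 (adjusted p 0.025 to 0.14 in limma and 0.013 in limma-voom). Members called in A20-RE against A20-KO became 0 with a pseudocount of 0.01, no filter, no variance trend or only the 2 groups compared, and 0 to 1 when a library was left out. In A20-KO against WT, 0 to 1 members were called when a library was left out and 1 with no fold threshold. In A20-RE against WT these were 1 to 3, with 3 only without WT replicate 1, and 3 with no fold threshold. MT1E in A20-KO against WT became a call without WT replicate 2 (-1.09), WT replicate 3 (-1.06) or A20-KO replicate 3 (-1.03). The sign turned on leaving out 1 library for MT1X (-0.41 to 0.12) and MT2A (-0.33 to 0.16) in A20-KO against WT and for MT2A in A20-RE against WT (-0.11 to 0.38). The cause was not tested.

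Over all genes, calls in A20-KO against WT, A20-RE against A20-KO and A20-RE against WT went from 1512, 517 and 2571 to 472, 155 and 976 with a pseudocount of 1 and to 931, 289 and 1555 with a mean FPKM of at least 1. Without A20-KO replicates 1 or 3 or A20-RE replicates 1 or 2, calls in A20-RE against A20-KO were 306, 315, 242 and 255. With the replicate block, calls over all genes were 1557 in A20-KO against WT and 2573 in A20-RE against WT, members called were 0, 1 and 1, and MT1X in A20-RE against A20-KO had an adjusted p of 0.033. Replicate numbers gave little sign of pairing the libraries. The mean correlation of deviations was 0.037 over 9 same-numbered pairs (-0.027 to 0.121) and -0.018 over others (-0.131 to 0.072). Deviations were taken from the group mean, which ties these 2 means together, so the second is no separate baseline. The median-of-ratios factor was 1.01 in each of the 9 libraries, so the deposited FPKM were already even by this measure. This scaling could therefore not move the comparisons and does not test the normalization. It is counted among the 18 alternatives. With it, calls over all genes were 1509, 517 and 2564, and the members' calls were the same.

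Among companion genes, SLC30A1 in A20-RE against A20-KO lost its call with a pseudocount of 1 (0.92) and without A20-KO replicate 3 (0.93) or A20-RE replicate 2 (0.95), GCLC with a pseudocount of 1 (0.98) and without A20-KO replicate 3 (0.93), and ZFP36 in A20-KO against WT without WT replicate 1 (0.98).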
